A study of Mus musculus with 18 samples.

Results

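The genes described here are 10 components of the Notch pathway in the dorsal telencephalon of Insm1 mutant mouse embryos: the ligand genes Dll1, Dll3 and Jag1, the receptor genes Notch1, Notch2 and Notch3, the receptor-modifying glycosyltransferase gene Lfng, and the target genes Hes1, Hes5 and Nrarp. They were chosen by name and role, with earlier results of these data known. A gene was taken where a probe set with an identifier of 6700000 or above carried its symbol and no other, which held for 10 of 10 genes, with 1 probe set each, among 14807 genes with a symbol of their own in that range. RNA of each E13.5 embryo went onto an exon array of its own. Of the embryos, 8 were wildtype, 6 carried 1 knockout allele of Insm1 (heterozygous) and 4 carried 2 (homozygous). Insm1 encodes a zinc finger transcription factor of nascent neurons and endocrine cells. The purpose given for the series is to find the targets of Insm1. The strain, the construction of the knockout allele and the number of litters are not given in the sources used here, and p-values thus reflect how far these 18 embryos varied, whatever their litters. Each value is a log2 signal, so that a difference of 1 is a doubling, and because probes differ in brightness, levels are compared between embryos and never between genes.

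Notch signalling passes between touching cells. A ligand on one cell binds a receptor on its neighbour, the receptor is cut, and its intracellular part joins the DNA-binding protein RBPJ to switch on target genes such as Hes1 and Hes5. In the embryonic cortex the ligands are made largely by cells that are leaving the progenitor state under proneural factors, while Hes1 and Hes5 repress proneural genes and keep neighbouring radial glia as progenitors.

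Over all 18 embryos the deviations of Dll1, Dll3 and Nrarp from the genotype mean were correlated (r from 0.72 to 0.79). Without heterozygous replicate 6 and homozygous replicate 2, r was 0.14 to 0.37, so this rests largely on these embryos. Hes5 stood apart in homozygous replicate 2. The sequences around the start sites of these 4 members are shown here. Each is the stretch from 250 bases before to 50 bases after a RefSeq start site, on build GRCm38.p6, read 5′ to 3′ along the gene's own strand. In the first 3, capitals mark the palindromic E-box CAGCTG, a core bound by proneural factors. In Hes5 they mark TGGGAA, the core bound by RBPJ, or its reverse complement.
Dll1 (chr17:15376883-15377182, minus strand): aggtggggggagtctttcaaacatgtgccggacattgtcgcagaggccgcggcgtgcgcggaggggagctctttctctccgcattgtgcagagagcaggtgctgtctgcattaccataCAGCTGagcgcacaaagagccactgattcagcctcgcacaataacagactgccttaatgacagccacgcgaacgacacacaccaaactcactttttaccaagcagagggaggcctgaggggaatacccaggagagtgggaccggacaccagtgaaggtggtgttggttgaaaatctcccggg
Dll3 (chr7:28301736-28302035, minus strand): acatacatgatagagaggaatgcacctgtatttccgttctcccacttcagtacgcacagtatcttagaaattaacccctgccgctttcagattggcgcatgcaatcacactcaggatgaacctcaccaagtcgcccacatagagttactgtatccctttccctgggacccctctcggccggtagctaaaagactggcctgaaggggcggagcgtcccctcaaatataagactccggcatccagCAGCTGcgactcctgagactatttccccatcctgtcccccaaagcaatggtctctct
Nrarp (chr2:25180508-25180807, plus strand): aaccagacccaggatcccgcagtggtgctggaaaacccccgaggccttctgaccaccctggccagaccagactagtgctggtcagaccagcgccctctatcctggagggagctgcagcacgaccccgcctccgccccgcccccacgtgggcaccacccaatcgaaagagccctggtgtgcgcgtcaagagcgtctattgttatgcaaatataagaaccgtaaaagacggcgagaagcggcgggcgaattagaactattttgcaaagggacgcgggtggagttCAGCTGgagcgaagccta
Hes5 (chr4:154960673-154960972, plus strand): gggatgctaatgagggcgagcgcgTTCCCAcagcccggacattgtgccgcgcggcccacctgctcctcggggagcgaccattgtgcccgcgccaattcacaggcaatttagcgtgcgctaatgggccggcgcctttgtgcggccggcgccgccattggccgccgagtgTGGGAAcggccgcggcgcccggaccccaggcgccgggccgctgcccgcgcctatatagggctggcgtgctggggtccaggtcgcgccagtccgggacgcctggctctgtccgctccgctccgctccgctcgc
Of the 10 members, 9 had such windows in the RefSeq table, 10 windows in all, and Hes1 was not matched. Dll1 had a second window (chr17:15375774-15376073), which held no CAGCTG. Searched on both strands, CAGCTG was in 5 of 10 windows (1 each of Dll1, Dll3, Jag1, Lfng and Nrarp) and in 16.3% of all 32851 windows. TGGGAA was in 2 of 10 windows, those of Hes5 and Lfng, with 2 matches each, and in 25.6% of all windows. The N-box CACNAG, a core bound by Hes proteins, was in 6 of 10 windows and in 42.5% of all windows. These are letter matches in short windows and do not show that a factor binds there.

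Insm1 itself had a single probe set. The sources used here do not say if that probe set covers the sequence removed in the knockout, which limits it as a check of the labels. Its mean went from 5.34 ± 0.34 (SD, n = 8) with both alleles intact to 4.77 ± 0.39 (SD, n = 6) with 1 mutant allele and 3.31 ± 0.34 (SD, n = 4) with 2. The homozygous level fell by 2.03 against wildtype (SE 0.20, limma adjusted p = 3.81e-05), and the heterozygous difference was -0.57 (SE 0.18, limma adjusted p = 0.641). A pair of embryos stood apart from the rest. The mean of 8 hypoxia response genes lay at 5.37 in heterozygous replicate 6 and at 5.28 in homozygous replicate 2, against 3.64 to 3.99 in the other 16 embryos. Results that rest on this pair are given with and without it. Of the marker lists, 6 of 8 apical progenitor genes were measured, with means over all arrays from 6.18 (Pax6) to 9.49 (Vim), and 8 of 10 ventral telencephalon genes, with means from 0.81 (Gsx2) to 2.32 (Dlx2). Some markers of neighbouring tissue and blood were bright too, with Ttr of the choroid plexus at 8.20 and Hbb-y of erythroid cells at 9.12. Probes differ in brightness, so these levels give no shares of cells. The mean of the cortical hem and choroid plexus list ran from 3.33 to 4.27 in wildtype, 3.21 to 4.12 in heterozygous and 3.57 to 4.18 in homozygous embryos, and that of the erythroid list from 4.72 to 5.16, 4.63 to 5.11 and 4.87 to 5.34. Endothelial cells also use Notch genes, and the mean of 7 of 7 endothelial markers lay at 1.98 to 2.21 in wildtype, 1.95 to 2.19 in heterozygous and 1.87 to 2.14 in homozygous embryos. Homozygous replicates 1, 2 and 3 (1.91, 1.87 and 1.90) lay below every wildtype and heterozygous embryo. In homozygous against wildtype embryos 0 of 7 markers passed in limma, against 0.564% of all probe sets. The part of endothelial cells in the members' values was not tested. In whole tissue, fewer cells of a type and less RNA per cell cannot be told apart.

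With the deposited values of all 18 arrays and no covariate, none of the 10 members passed an adjusted p of 0.05 in limma in any comparison. Dll3 and Dll1 passed under some other settings, given with each gene. Against wildtype, 0 of 10 members passed in homozygous embryos, where 0.564% of all probe sets did, and 0 of 10 in heterozygous embryos, where 0% did. Between homozygous and heterozygous embryos 0 of 10 members passed, against 0.03% of all probe sets. In the fit of a slope per mutant allele it was 0 of 10 against 0.678%. At an unadjusted p under 0.05, 2 of 10 members were found in homozygous against wildtype embryos (15.3% of all probe sets), 2 of 10 in heterozygous against wildtype (7.47%), 3 of 10 in homozygous against heterozygous (8.53%) and 0 of 10 for the slope (15.7%). Those members were Dll3 and Hes5 in the first comparison, Dll3 and Jag1 in the second, and Dll1, Dll3 and Hes5 in the third. Both comparisons with wildtype use the same 8 wildtype arrays.

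**Figure D1:**
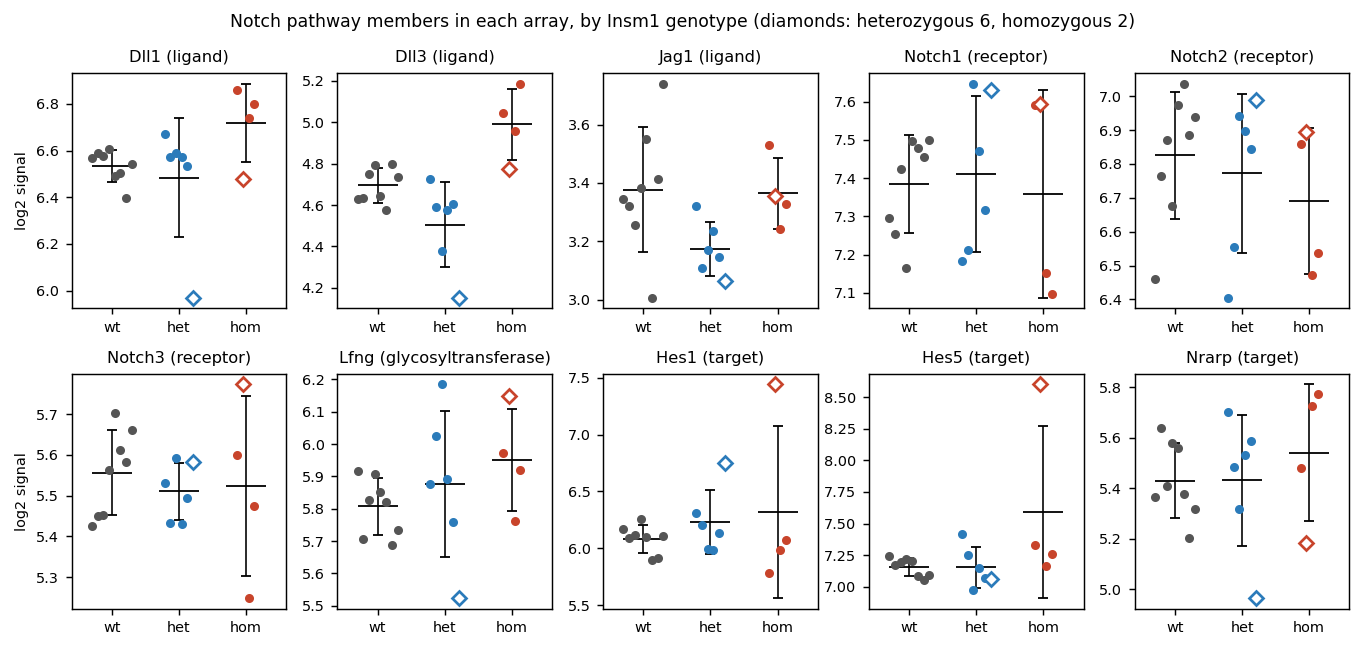
Log2 signal of the 10 members in each of the 18 embryos, 1 panel per gene with its own vertical scale, by genotype; horizontal lines mark the genotype mean, vertical bars 1 SD to each side, and open diamonds mark heterozygous replicate 6 and homozygous replicate 2. For Dll3, homozygous replicates 1, 3 and 4 sit above all other embryos. Heterozygous replicate 6 lies away from the other heterozygous embryos for Dll1 (5.97), and homozygous replicate 2 from the other homozygous embryos for Hes1 (7.44) and Hes5 (8.60).

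Among the ligand genes, Dll3 differed most between genotypes. Dll3 encodes a divergent Delta protein that acts within the cell that makes it and lowers that cell's response to Notch. In the homozygous embryos its values were 5.04, 4.77, 4.96 and 5.19. The heterozygous embryos ran from 4.15 through a median of 4.58 to 4.72, and the wildtype embryos from 4.58 through 4.69 to 4.80. All 4 homozygous embryos thus lay above all 6 heterozygous embryos, a pattern that 0.474% of all probe sets showed in that direction. Against wildtype, only homozygous replicate 2 overlapped. The difference between homozygous and heterozygous embryos was 0.49 (SE 0.10, 1.40-fold, 95% interval 0.28 to 0.69), which ranked 11 of 16661 by p (unadjusted p = 7.47e-05, limma adjusted p = 0.106). Against wildtype it was 0.29 (SE 0.09, 1.23-fold, limma adjusted p = 0.122). Heterozygous embryos differed from wildtype by -0.19 (SE 0.08, limma adjusted p = 0.658). The level in heterozygous embryos was the lowest of the 3 genotype means, so the means did not follow the number of mutant alleles, and the slope per allele was 0.11 (SE 0.06, limma adjusted p = 0.438).

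The call of Dll3 depended on how the arrays were scaled and on the pair of embryos with high hypoxia genes. After a further quantile normalization Dll3 was the only member to pass, with 0.38 against wildtype (limma adjusted p = 0.0167; 0.948% of all probe sets passed) and 0.48 against heterozygous embryos (limma adjusted p = 0.0116; 0.126%). After centring each array on its median the values were 0.36 (limma adjusted p = 0.0339; 0.852%) and 0.49 (limma adjusted p = 0.0187; 0.078%). Without the pair, Dll3 was 0.37 above wildtype (SE 0.07, 1.29-fold, limma adjusted p = 0.0339; 0.534% passed) and 0.49 above heterozygous embryos (SE 0.08, limma adjusted p = 0.0474; 0.024%). With the hypoxia list as a covariate on all 18 arrays it was 0.39 (limma adjusted p = 0.0196; 0.408%) and 0.51 (limma adjusted p = 0.00792; 0.036%). The size therefore stayed between 0.29 and 0.39 against wildtype over these fits, and the side of the threshold changed. It was 0.27 with a replicate block (limma adjusted p = 0.118) and 0.26 with the Y-linked gene Eif2s3y as a covariate (limma adjusted p = 0.169). Leaving out heterozygous replicate 6 alone brought Dll3 past the threshold against wildtype (limma adjusted p = 0.0464; 2.21% passed), although that embryo is in neither group, since all genotypes share an estimate of the spread. Leaving out homozygous replicate 2 alone did not (0.37, limma adjusted p = 0.161).

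Dll1, the main Delta ligand of cortical progenitors, also had its highest values in homozygous embryos. These were 6.86, 6.48, 6.74 and 6.80, with replicate 2 the lowest. Wildtype embryos ran from 6.40 through a median of 6.55 to 6.61. Heterozygous embryos lay at 6.53 to 6.67 apart from replicate 6, which was at 5.97. Over 18 arrays the difference between homozygous and wildtype embryos was 0.18 (SE 0.10, limma adjusted p = 0.413). Without the pair all 3 homozygous embryos lay above every wildtype and every heterozygous embryo, as did those of Dll3, and the difference from wildtype was 0.26 (SE 0.06, 1.20-fold, limma adjusted p = 0.0394). Over those 16 arrays, 2 of 10 members did not overlap and were higher in homozygous embryos than in wildtype, against 0.588% of all probe sets, and the same 2 in homozygous against heterozygous embryos, against 1.23%. Over all 18 arrays the count against wildtype was 0 of 10, with 0.27% of all probe sets. In heterozygous against wildtype embryos it was 0 of 10 over 18 arrays (0.096%) and over 16 arrays (0.162%).

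With the hypoxia list as a covariate, Dll1 was 0.31 above wildtype (limma adjusted p = 0.0483). The list mainly sets the pair apart. Its r with Dll1, genotype means taken off, was -0.85 over 18 embryos and 0.61 over the other 16. For Dll3 it was -0.73 and 0.20. The covariate is thus no check separate from leaving the pair out. Without heterozygous replicate 6 alone its limma adjusted p was 0.127 and without homozygous replicate 2 alone it was 0.34, so the call needed both to be left out or the covariate. Against heterozygous embryos Dll1 was 0.23 higher over 18 arrays (SE 0.11, limma adjusted p = 0.574) and 0.21 higher over 16 (limma adjusted p = 0.412). Dll1 and Dll3 are made largely by differentiating cells, and the mean of 7 of 8 cortical neuron markers lay at 7.15 to 7.45 in wildtype, 7.09 to 7.32 in heterozygous and 6.93 to 6.99 in homozygous embryos. The homozygous range lay below both others, which overlapped. In homozygous against wildtype embryos 3 of these 7 genes passed in limma, all lower, against 0.564% of all probe sets in either direction. The mean of the apical progenitor list overlapped between genotypes, at 7.0 to 7.23, 7.03 to 7.27 and 7.06 to 7.35. The part of these cell types in the Dll1 and Dll3 values was not tested.

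Jag1, a ligand of the Jagged class that in the embryonic brain is more restricted than the Delta ligands, measured 3.53, 3.35, 3.24 and 3.33 in homozygous embryos. Wildtype embryos ran from 3.01 through a median of 3.36 to 3.74 and heterozygous embryos from 3.06 through 3.16 to 3.32, so that all groups overlapped. The homozygous difference from wildtype was -0.01 (95% interval -0.22 to 0.19, limma adjusted p = 0.972). The heterozygous difference was -0.20 (SE 0.09, unadjusted p = 0.0287, limma adjusted p = 0.658).

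**Figure D2:**
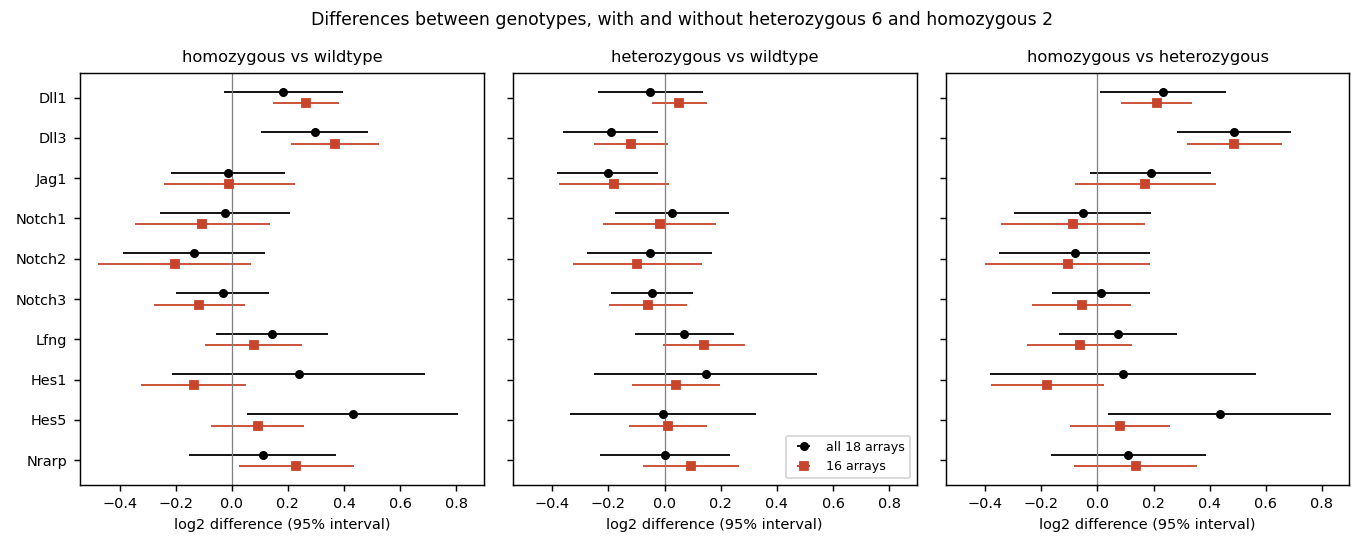
Log2 differences of the 10 members between genotypes with 95% intervals, over all 18 arrays (black) and over the 16 arrays without heterozygous replicate 6 and homozygous replicate 2 (red). Dll3 lies above 0 in both comparisons of homozygous embryos, while the wide intervals of Hes1 and Hes5 shrink and move towards or past 0 without the pair.

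The receptor genes showed no difference that passed the test. Notch1, the main receptor of cortical radial glia, measured 7.59, 7.59, 7.15 and 7.10 in homozygous embryos. Wildtype embryos ran from 7.16 through a median of 7.44 to 7.50 and heterozygous embryos from 7.18 through 7.39 to 7.65. Its difference between homozygous and wildtype embryos was -0.03 (95% interval -0.26 to 0.21, limma adjusted p = 0.952). Homozygous replicates 1 and 2 lay above every wildtype embryo and replicates 3 and 4 below every one. For Notch2, a second receptor of progenitors, the difference was -0.14 (95% interval -0.39 to 0.12, limma adjusted p = 0.661). For Notch3, a receptor also known from pericytes and smooth muscle of vessels, it was -0.03 (95% interval -0.20 to 0.13, limma adjusted p = 0.908). The mean of 9 of 9 pericyte and meningeal markers lay at 1.62 to 1.85 in wildtype, 1.71 to 1.96 in heterozygous and 1.69 to 1.86 in homozygous embryos. The signs for Notch1 and Notch3 turned positive after quantile normalization (0.02 and 0.04) and median centring (0.04 and 0.03), so no direction can be given for either.

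Lfng encodes Lunatic fringe, a glycosyltransferase that adds sugars to the receptor and changes which ligands it answers. Its homozygous values of 5.97, 6.15, 5.76 and 5.92 overlapped the wildtype range of 5.69 to 5.92 and the heterozygous range of 5.52 to 6.19. The difference between homozygous and wildtype embryos was 0.14 (SE 0.10, limma adjusted p = 0.515), and 0.08 without the pair.

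Among the target genes, 1 or 2 embryos set the differences of Hes1 and Hes5. Hes5, a repressor of proneural genes in radial glia, measured 7.33, 8.60, 7.17 and 7.26 in homozygous embryos. Wildtype embryos ran from 7.06 through a median of 7.18 to 7.24 and heterozygous embryos from 6.97 through 7.11 to 7.42. Homozygous replicate 2 stood far above all others, while the other 3 homozygous embryos lay among the heterozygous ones. The difference from wildtype was 0.43 over 18 arrays (SE 0.18, unadjusted p = 0.0273, limma adjusted p = 0.254), and 0.09 without the pair (SE 0.08, 95% interval -0.07 to 0.26, limma adjusted p = 0.673). The difference from heterozygous embryos went from 0.44 (limma adjusted p = 0.548) to 0.08 (limma adjusted p = 0.855).

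Hes1, the related repressor that also responds to other signals, measured 5.78, 7.44, 5.99 and 6.07 in homozygous embryos. Wildtype embryos ran from 5.90 through a median of 6.10 to 6.26 and heterozygous embryos from 5.98 through 6.17 to 6.75, the last being replicate 6. The pair thus held the 2 highest Hes1 values of the 18 embryos. The homozygous difference from wildtype was 0.24 (SE 0.21, limma adjusted p = 0.664) over 18 arrays and -0.14 (SE 0.09, limma adjusted p = 0.539) over 16, so its sign rests on homozygous replicate 2.

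Nrarp, a target that in turn promotes loss of the Notch intracellular domain, went the other way in the pair. It measured 5.48, 5.19, 5.73 and 5.77 in homozygous embryos, 5.20 through a median of 5.39 to 5.64 in wildtype embryos, and 4.97 through 5.51 to 5.70 in heterozygous embryos. Homozygous replicate 2 and heterozygous replicate 6 were the lowest of their genotypes. The homozygous difference from wildtype was 0.11 (SE 0.12, limma adjusted p = 0.746) over 18 arrays and 0.23 (SE 0.10, limma adjusted p = 0.307) over 16, and 0.033 without homozygous replicate 4.

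As a group, 6 of 10 members were higher and 4 lower in homozygous than in wildtype embryos, where 40.9% of all probe sets were higher. The median difference of the members was 0.13, and the median over all probe sets was -0.03. The split of the members moved with the scaling. After quantile normalization it was 9 to 1 (median 0.20, all probe sets -0.00, 49.1% of them higher). After median centring it was 9 to 1 as well (0.19 and 0.04, 61.1%). Without the pair it was 5 to 5 (0.03 and -0.03, 40.2%). Between heterozygous and wildtype embryos 4 members were higher and 6 lower (39.5% of all probe sets were higher). Between homozygous and heterozygous embryos 8 were higher and 2 lower (median 0.10, 44.3% of all probe sets higher). Without the pair the last split was 5 to 5 (median 0.01, 40.7%) and the one before it 5 to 5 as well (44.4%). The heterozygous split against wildtype turned to 7 higher and 3 lower after quantile normalization (49.8% of all probe sets higher). After median centring it was 8 and 2 (62.6%).

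The members also varied between embryos of a genotype. Deviations from the genotype mean were correlated over the 18 embryos, and again over 16, as a description: the points share their array's normalization. The receptors moved together, with r = 0.86 for Notch1 and Notch2 over 18 embryos (rho = 0.86) and 0.83 over 16 (rho = 0.83), and r = 0.67 and 0.58 for Notch1 and Notch3. Notch1 and Nrarp were opposed in both sets (r = -0.77 and -0.72). Dll1, Dll3 and Nrarp were correlated over 18 embryos, with r = 0.76 for Dll1 and Dll3 (rho = 0.50), 0.79 for Dll1 and Nrarp (rho = 0.51) and 0.72 for Dll3 and Nrarp (rho = 0.61). Over 16 embryos these fell to 0.14, 0.37 and 0.29, so they rest largely on the pair. Hes1 and Hes5 stayed correlated (r = 0.85 over 18 and 0.58 over 16). The sign turned for 22 of 45 pairs of members. Among them were Notch1 and Hes1, from 0.22 to -0.81, Notch2 and Hes1, from 0.13 to -0.79, Hes1 and Nrarp, from -0.52 to 0.68, Dll1 and Hes1, from -0.63 to 0.46, Dll3 and Hes1, from -0.52 to 0.49, and Dll1 and Hes5, from -0.25 to 0.64.

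**Figure D3:**
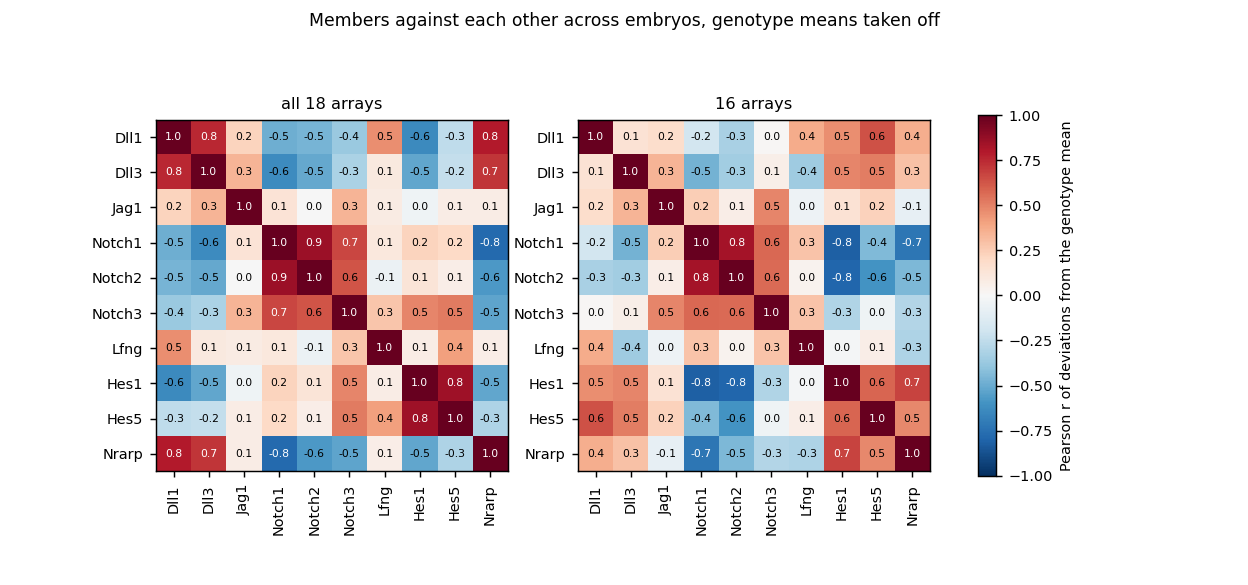
Pearson r between members of their deviations from the genotype mean, over all 18 embryos (left) and over the 16 without heterozygous replicate 6 and homozygous replicate 2 (right); the colour scale runs from -1 to 1. The receptor block keeps its positive values, while Dll1 with Dll3 goes from 0.76 to 0.14 and Notch1 with Hes1 from 0.22 to -0.81.

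The relation to the hypoxia response list showed the same dependence. With genotype means taken off, r with the list mean was -0.85 for Dll1, -0.73 for Dll3, -0.71 for Nrarp, 0.89 for Hes1 and 0.58 for Hes5 over 18 embryos. Over the other 16 it was 0.61 for Dll1, 0.20 for Dll3, 0.43 for Nrarp, 0.79 for Hes1 and 0.55 for Hes5. The negative values of Dll1, Dll3 and Nrarp were thus those of the pair. Jag1 had -0.20 over 18 and -0.22 over 16, and Hes1 and Hes5 had positive values in both sets. For the receptors r went from positive over 18 to negative over 16: 0.36 and -0.67 for Notch1, 0.26 and -0.75 for Notch2, 0.42 and -0.40 for Notch3. Lfng had -0.18 over 18 and 0.35 over 16. The 18 embryos fall into the pair and the rest on this list, so the values over 18 compare these clusters.

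**Figure D4:**
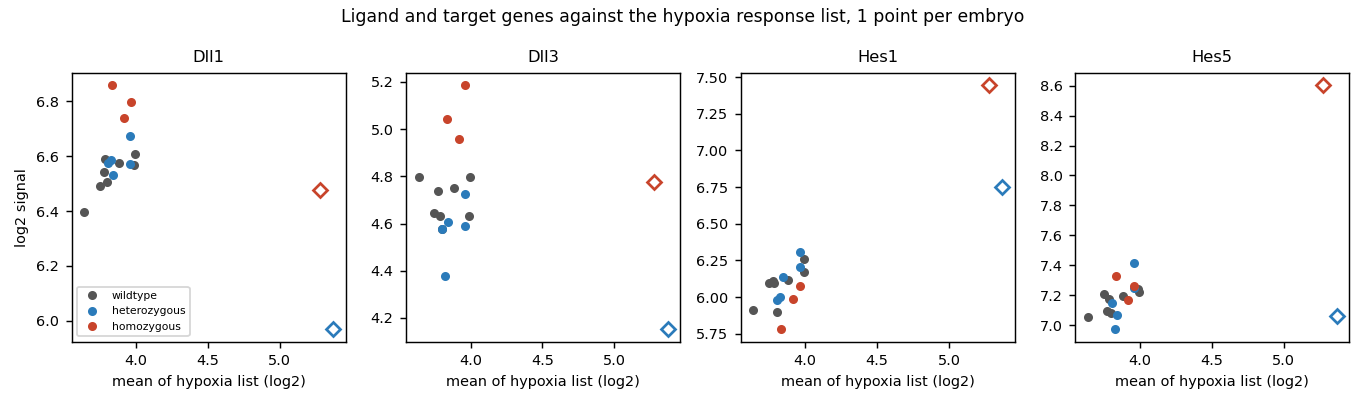
Log2 signal of Dll1, Dll3, Hes1 and Hes5 against the mean log2 signal of 8 hypoxia response genes, 1 point per embryo coloured by genotype, with open diamonds for heterozygous replicate 6 and homozygous replicate 2. The pair lies at 5.37 and 5.28 on the horizontal axis, the other 16 embryos between 3.64 and 3.99.

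The genes most like 4 of the members, by r of deviations from the genotype mean, changed fully when the pair was left out. For Dll1 they were Stk16 (r = 0.97), Zfp251 (0.96) and Lman2 (0.96) over 18 embryos and Marchf2 (0.91), Elovl4 (0.90) and Wasf3 (0.86) over 16. For Dll3 they were Fam102a (0.90), Txlna (0.90) and Ctbp1 (0.89), and over 16 Slc26a10 (0.92), Retsat (0.85) and Pkig (0.85). For Hes1 they were Tbl2 (0.96), Tnfaip3 (0.93) and Stc2 (0.93), and over 16 Parp2 (0.97), Rars (0.93) and Tacc3 (0.93). For Hes5 they were Ephb3 (0.88), Prss48 (0.88) and Grb10 (0.87), and over 16 Map6 (0.91), Ttll12 (0.90) and Dact2 (0.89). These are the highest of the coefficients with all other genes, over few embryos.

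Of 51 further genes of the pathway and its proneural activators, 36 had a probe set of their own, and the others were not analysed here. None of the 36 passed in limma in any of the 3 comparisons. The shares of all probe sets that passed were 0.564% in homozygous against wildtype embryos, 0% in heterozygous against wildtype and 0.03% in homozygous against heterozygous. In homozygous against wildtype embryos 27 were lower and 9 higher, with a median of -0.11 (all probe sets -0.03), and 9 had an unadjusted p under 0.05, each lower. Of all probe sets 40.9% were higher in this comparison and 15.3% had an unadjusted p under 0.05. The split of the 36 was 24 lower and 12 higher after quantile normalization (49.1% of all probe sets higher). It was 26 and 10 after median centring (61.1%) and 27 and 9 without the pair (40.2%). The smallest adjusted p was that of Adam10, the metalloprotease that makes the first cut in the ligand-bound receptor, at -0.19 (SE 0.05, limma adjusted p = 0.0988), from 6.93 ± 0.08 (SD, n = 8) in wildtype to 6.74 ± 0.07 (SD, n = 4) in homozygous embryos. It was followed by Maml1, a coactivator that completes the RBPJ complex, at -0.35 (SE 0.10, limma adjusted p = 0.11), and by Mib1, the ubiquitin ligase that sets off endocytosis of ligands, at -0.18 (SE 0.06, limma adjusted p = 0.173). In the other direction the smallest p-values were those of Dlk2, a ligand-like protein (0.17, SE 0.10, limma adjusted p = 0.422), Hes7, the repressor of the segmentation clock (0.21, SE 0.14, limma adjusted p = 0.507), and Neurog2, the proneural factor of the dorsal telencephalon (0.20, SE 0.14, limma adjusted p = 0.516). Neurog2 measured 7.78 in homozygous replicate 2 and 7.06 to 7.15 in the other 3 homozygous embryos. Without the pair its difference was 0.04, while Adam10 was at -0.17, Maml1 at -0.32, Mib1 at -0.19, Dlk2 at 0.18 and Hes7 at 0.17. Neurog1, the other proneural factor measured, went the other way in homozygous against wildtype embryos, at -0.42 (SE 0.18, limma adjusted p = 0.273). Without the pair Neurog1 was at -0.33.

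By role, 3 of 4 other ligand-like genes, 3 of 4 other glycosyltransferases, 4 of 4 genes of ligand endocytosis, 2 of 4 of receptor cleavage, 5 of 6 of the nuclear complex, 6 of 7 inhibitors and turnover factors, 3 of 5 of the Hes and Hey family and 1 of 2 proneural factors were lower in homozygous than in wildtype embryos. Since most probe sets were lower in this comparison (40.9% were higher), such counts in small lists are a description. The counts also take in dim probe sets, whose direction is less certain. These were Heyl (mean over all arrays 1.04), Rbpj (1.34), Psen2 (1.41), Dll4 (1.52) and Neurl1a (1.88). Each of these means lay below the lowest of the array medians. In heterozygous against wildtype embryos 27 of 36 were lower, where 39.5% of all probe sets were higher. It was 16 of 36 after quantile normalization (49.8% of all probe sets higher), 18 of 36 after median centring (62.6%) and 20 of 36 without the pair (44.4%). That split thus depends on the scaling and on the pair. Between homozygous and heterozygous embryos 25 of 36 were lower (44.3% of all probe sets were higher). Here the number lower was 23 after quantile normalization (47.9% of all probe sets higher), 22 after median centring (47.0%) and 25 without the pair (40.7%).

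**Figure D5:**
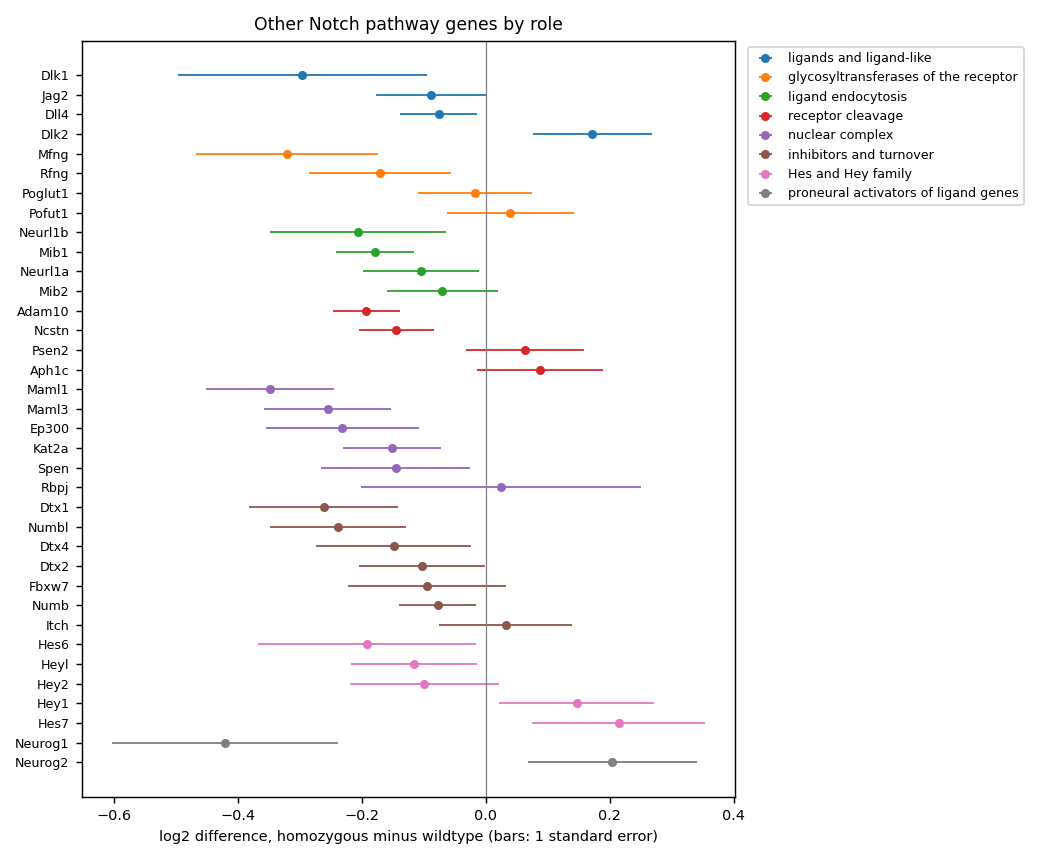
Log2 difference between homozygous and wildtype embryos for the 36 further pathway genes, grouped and coloured by role, with bars of 1 standard error. Most points lie left of 0, with Neurog1 and Maml1 farthest left, and none passed the adjusted threshold.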

How the data were processed

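RNA from 18 embryos was measured on Affymetrix exon arrays. The authors deposited 1 log2 signal for each transcript-level probe set, made with RMA in Affymetrix Expression Console 1.1, per the submitters' processing notes. RMA equalizes the arrays' distributions over the values it is given, so a difference is relative to the other transcripts on an array. The deposited values still differed in scale. Array medians ran from 2.00 (heterozygous replicate 6) to 2.25 (wildtype replicate 4), and 75th percentiles from 4.50 to 4.87. Without the dimmest 1 in 3 probe sets, 33.0% were higher in homozygous than in wildtype embryos. All 10 members are among these brighter probe sets. No genome build is given for the deposited values in the sources used here, and depth does not apply: the number of arrays limits the precision.

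Of 23238 probe sets, the 16661 with identifiers of 6700000 or above were fitted. Of these 14939 had 1 symbol in the platform annotation, 989 several and 733 none. Positions come from RefSeq on GRCm38.p6. The model, in limma 3.58.1 and R 4.3.3, held 1 mean for each genotype over the 18 arrays (lmFit, eBayes, two-sided, no filter or covariate), with Benjamini-Hochberg adjustment over 16661 probe sets and a threshold of 0.05. The slope per mutant allele came from another model. No 2 arrays were identical (r from 0.985 to 0.996). The procedure was tested on simulated arrays with independent noise in each value. They held no outlying embryos and no differences in scale, so that test does not bear on those features.

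The members, lists and tests were chosen with earlier results of these data known. The genes named are Insm1, the 10 members, of the other pathway genes the 3 of each direction with the smallest p in homozygous against wildtype embryos, and for Dll1, Dll3, Hes1 and Hes5 the 3 genes with the highest r. Outside that rule, Neurog1 is named beside Neurog2, and dim probe sets of the pathway list are named for their level. Alternatives were quantile normalization, median centring, a trended robust prior, array weights, removal of the dimmest 1 in 3 probe sets, only the groups compared, a replicate block, covariates (hypoxia list, ventral list, Eif2s3y), the whole table, a threshold of 0.1, and leaving out arrays. The Y-linked Eif2s3y was at 5.12 in homozygous replicate 4 and at 0.32 to 0.49 in the other homozygous embryos. In wildtype replicates 1, 2, 5, 6 and 7 it was at 4.70 to 4.97, and in replicates 3, 4 and 8 at 0.27 to 0.47. In heterozygous replicates 3, 4 and 6 it was at 4.46 to 4.81, and in replicates 1, 2 and 5 at 0.55 to 0.66. The balance of the sexes thus differed between genotypes.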

Additional observations from a re-analysis of the deposited data

Results flagged for a closer look

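Of 30 sets of values (10 members in 3 genotypes), 2 held an embryo far from the others by Dixon's criterion, which by chance marks about 1 in 20 sets. Dll1 was 5.97 in heterozygous replicate 6, where the nearest heterozygous embryo was at 6.53. Hes5 was 8.60 in homozygous replicate 2, where the nearest homozygous embryo was at 7.33. These are the embryos with the highest hypoxia list means (5.37 and 5.28), whose part in the values was not tested.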

How the results depend on the processing

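The count of members passing in homozygous against wildtype embryos was 0, but 1 after quantile normalization, 1 after median centring, 2 with the hypoxia covariate and 2 without heterozygous replicate 6 and homozygous replicate 2. Against heterozygous embryos it was 0, and 1 under each of these 4. Leaving out each array gave 0 to 1 against wildtype and 0 elsewhere. Under the other alternatives run it was 0 in each comparison. The labels do not say if replicate numbers pair embryos. The 14 same-numbered pairs had r from -0.212 to 0.222, and 2 of 16 embryos correlated best with their own number. Such correlations cannot decide on a shared litter or batch, which was not tested. With the replicate block 0 members passed in each comparison, and 361 probe sets passed in homozygous against wildtype embryos in place of 94. The signs that turned belong to differences that did not pass, and the cause was not tested. In homozygous against wildtype embryos Jag1 became 0.064 (quantile), 0.051 (centring), 0.028 (replicate block) and 0.015 (hypoxia covariate), Notch1 0.022, 0.038 and, with the replicate block, 0.055, Notch3 0.044, 0.032 and 0.028, and Hes1 -0.065 with the hypoxia covariate and -0.14 over 16 arrays. In heterozygous against wildtype embryos Dll1 became 0.0010 (quantile), 0.0065 (centring), 0.0095 (array weights), 0.042 (hypoxia) and 0.052 (16 arrays). Notch1 became -0.013 (weights), -0.018 (hypoxia) and -0.018 (16 arrays), Notch2 0.0032 (centring), Notch3 0.016 (quantile) and 0.012 (centring), and Hes1 -0.071 (hypoxia). Hes5 became 0.040 (quantile), 0.051 (centring) and 0.012 (16 arrays), and Nrarp -0.056 (replicate block), -0.022 (ventral list) and -0.0043 (Eif2s3y). In homozygous against heterozygous embryos Notch2 became 0.0068 (replicate block), Notch3 -0.00064 (hypoxia), -0.013 (ventral list) and -0.056 (16 arrays), Lfng -0.063 and Hes1 -0.18 (both 16 arrays).

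Leaving out each array in turn, homozygous against wildtype differences ran from 0.14 to 0.26 for Dll1, 0.23 to 0.37 for Dll3, -0.069 to 0.038 for Jag1, -0.10 to 0.061 for Notch1, -0.20 to -0.062 for Notch2, -0.12 to 0.060 for Notch3, -0.14 to 0.42 for Hes1, 0.092 to 0.57 for Hes5, 0.078 to 0.21 for Lfng and 0.033 to 0.23 for Nrarp. In heterozygous against wildtype embryos they ran from -0.088 to 0.052 for Dll1, -0.021 to 0.071 for Notch1, -0.11 to 0.020 for Notch2, -0.059 to 0.030 for Hes5 and -0.053 to 0.094 for Nrarp. In homozygous against heterozygous embryos they ran from 0.42 to 0.56 for Dll3, -0.13 to 0.035 for Notch1, -0.070 to 0.10 for Notch3 and -0.28 to 0.27 for Hes1.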
